A study of Mus musculus with 28 samples.

Results

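The Fc gamma receptors of mouse macrophages were taken as 5 named genes, the activating receptors Fcgr1, Fcgr3 and Fcgr4, the inhibitory receptor Fcgr2b, and Fcer1g, which encodes the shared signalling chain of the activating receptors. These are 5 of the 54532 genes in the count table, and all 5 passed the expression filter of every comparison. The genes were listed by name, and earlier results of these data were known when they were chosen. They were followed in bone marrow-derived macrophages (BMDMs) incubated with plasma-derived von Willebrand factor (pd-VWF, the adhesive glycoprotein of primary hemostasis) or with bacterial lipopolysaccharide (LPS).

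Bulk RNA-seq covered 28 cultures. Control cultures received PBS, VWF cultures 10 µg/ml of pd-VWF and LPS cultures 100 ng/ml of LPS, and RNA was taken after 3.5 h or 16 h. There were 5 control, 5 VWF and 4 LPS cultures at each time. All cells were wild-type macrophages grown from the marrow of adult C57/B6JB mice with M-CSF, the growth factor that drives macrophage differentiation, so every group, control included, had been exposed to M-CSF and to fresh medium with calcium. The labels name the replicates as biological but do not say whether they came from separate mice, so p-values measure the spread between these cultures. The times are incubation times, and each time had its own control.

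Fc gamma receptors bind the constant part of IgG and let macrophages take up antibody-coated particles and immune complexes. The activating receptors need the gamma chain encoded by Fcer1g, which carries an ITAM, the tyrosine motif that Src-family kinases phosphorylate and to which the kinase Syk binds. Fcgr2b instead carries an ITIM in its own tail, recruits inositol phosphatases such as Inpp5d, and sets the threshold against which the activating receptors work.

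The genes lie in 2 places in the mouse genome GRCm38. Fcgr1 (ENSMUSG00000015947), the high-affinity receptor, lies on chromosome 3 from 96282909 to 96293969 on the minus strand. The other members share a stretch of 276 kb on chromosome 1. There, Fcgr2b (ENSMUSG00000026656) runs from 170958617 to 170976547 on the minus strand, Fcgr4 (ENSMUSG00000059089) from 171018920 to 171029761 on the plus strand, Fcgr3 (ENSMUSG00000059498) from 171051174 to 171064935 on the minus strand, and Fcer1g (ENSMUSG00000058715) from 171229572 to 171234365 on the minus strand. The exons of Fcgr2b overlap the antisense gene Gm38204 over 155 bases, 2.68% of their length, and Gm38204 had between 0 and 8 counts per culture. Fcgr2b and Fcgr3 are close relatives, and 44 of the 1733 windows of 100 bases in Fcgr3 transcripts (2.54%) also occur in Fcgr2b. No window of 150 bases was shared between them. With any other gene, Fcgr2b shared 251 of 5843 windows of 100 bases (4.3%) and 114 of 5932 windows of 150 bases (1.92%). The genes that shared most with it were Cplx2, Rab3c and Gm47409, and the effect on its counts was not tested.

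The promoters of Fcgr1 and Fcgr4 are shown because the windows of these activating genes held sequence matches that the windows of the other members lacked. RefSeq windows (GRCm38.p6) of 250 bases before and 50 after the transcription start were available for all 5 genes, and the 250 bases before the start are printed here, 5′ to 3′, with matches in capitals. The letters searched on both strands were TTCNNNGAA, the core of a STAT-binding GAS element, 2 copies of GAAA set 2 bases apart, the core of an interferon-stimulated response element, and GAGGAA, a core bound by the macrophage factor PU.1. They were chosen after the sequences had been seen. The first stretch lies at chr3:96293970-96294219 on the minus strand and the second at chr1:171018676-171018925 on the plus strand.
Fcgr1: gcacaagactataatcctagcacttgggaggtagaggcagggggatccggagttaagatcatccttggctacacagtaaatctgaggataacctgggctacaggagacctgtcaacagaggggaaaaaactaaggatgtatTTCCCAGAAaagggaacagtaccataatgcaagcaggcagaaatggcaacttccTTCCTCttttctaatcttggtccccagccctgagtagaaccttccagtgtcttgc
Fcgr4: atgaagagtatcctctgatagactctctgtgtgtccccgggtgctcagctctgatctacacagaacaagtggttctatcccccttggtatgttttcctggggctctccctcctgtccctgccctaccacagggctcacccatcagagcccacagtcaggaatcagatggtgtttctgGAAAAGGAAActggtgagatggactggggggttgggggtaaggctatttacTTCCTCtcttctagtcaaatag

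In Fcgr1 the GAS-type match TTCCCAGAA begins 109 bases before the start, and in Fcgr4 the response-element match GAAAAGGAAA begins 73 bases before it. TTCNNNGAA occurs in 8.3% and the pair of GAAA in 3.44% of 32851 promoter windows of the same length, and among the members each occurs in 1 gene. These windows leave out 1 chromosome, which holds no member. TTCCTC, the reverse complement of GAGGAA, stands in capitals in both stretches and also occurs in the windows of Fcgr3, and 28.3% of the windows counted hold it on either strand. No match overlaps another. The windows of Fcgr2b and Fcer1g hold none of the 3 motifs, which says only that these letters are not in these windows. On the minus strand, the Fcgr2b window ends at 170976321 and the Fcgr3 windows at 171059653 and 171059644. These ends lie inside the gene spans given above, so the sequence before the outer 5′ ends of these 2 genes was not searched.

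Total counts per culture lay between 41131209 and 77699206, with a median of 52986574, and the member with the fewest reads, Fcgr2b, had at least 1079 counts in every culture. Levels are given as RPKM, reads per kilobase of exon scaled to library size, computed here with TMM scaling over all 28 cultures, so that levels can be compared between groups and between genes. All 8 macrophage markers were detected, with Csf1r, the M-CSF receptor, between 90.8 and 341 RPKM over the 28 cultures. Of the markers of other cells with these receptors, none of 3 natural killer cell and none of 5 mast cell markers reached 1 RPKM in any culture, and 4 of 9 neutrophil markers did, with summed levels of 6.41 to 54.8 RPKM. At least 1 RPKM in some culture was also reached by 1 of 4 T cell markers (Cd4), 1 of 5 B cell markers (Cd79b), 4 of 4 fibroblast markers and none of 3 erythroid markers. Of 4 dendritic cell markers only Xcr1 reached it, and the summed level of the list was 2.66 to 4 RPKM with VWF at 3.5 h, 4.88 to 5.99 RPKM with LPS at 3.5 h and 2.82 to 6.57 RPKM with LPS at 16 h, against at most 0.554 RPKM in the other groups. The summed macrophage markers ranged from 12070 to 16483 RPKM with VWF at 16 h, above the 3776 to 11837 RPKM of the matched controls. Most of that sum was Lyz2, at 10275 to 13980 RPKM against 2547 to 9820 RPKM. Csf1r, Adgre1 and Itgam also lay above the controls, and Cd68, Mertk and Spi1 overlapped them. Cd14 lay below, at 211 to 259 RPKM against 580 to 852 RPKM. The part of the dendritic cell or macrophage list in the changes described here was not tested. In bulk RNA, fewer cells expressing a gene and less RNA per cell cannot be told apart.

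The inhibitory receptor Fcgr2b was the member that VWF moved most at 3.5 h. In the 5 control cultures at 3.5 h it measured 6.29, 7.37, 8.64, 9.78 and 10.1 RPKM. With VWF it measured 37.1, 39.5, 47.9, 62.8 and 56.1 RPKM. With LPS at the same time it measured 19.6, 28.1, 39.4 and 38.1 RPKM. Every culture with either agonist lay above every control, while the VWF and LPS cultures overlapped.

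At 16 h the order of the agonists was the other way round. Fcgr2b measured 5.74, 6.36, 7.43, 6.89 and 3.61 RPKM in controls. With VWF it measured 16.1, 16.3, 21.8, 17.6 and 13.0 RPKM. All VWF cultures were still above their controls, but none reached the lowest VWF culture of the earlier time. With LPS it measured 60.8, 67.5, 74.6 and 59.7 RPKM, above every VWF and every control culture at 16 h.

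In the edgeR quasi-likelihood fits over all expressed genes, with Benjamini-Hochberg adjustment, a gene was called at an adjusted p under 0.05 and an absolute log2 fold change of at least 1. Fcgr2b rose 5.81-fold with VWF at 3.5 h (log2 fold change 2.54 ± 0.18 SE, edgeR adjusted p = 3.9e-07). It rose by 1.48 ± 0.21 on the log2 scale with VWF at 16 h (edgeR adjusted p = 0.000328). LPS raised it by 1.90 ± 0.21 at 3.5 h and by 3.47 ± 0.21 at 16 h (edgeR adjusted p = 1.07e-05 and 7.55e-07). VWF and LPS were compared with the same control cultures, so these changes are not independent of each other.

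The change of Fcgr2b between the times was then tested directly. From 3.5 h to 16 h it fell by 1.51 ± 0.17 on the log2 scale in VWF cultures (edgeR adjusted p = 1.36e-05), whereas in LPS cultures it rose by 1.10 ± 0.21 (edgeR adjusted p = 0.00152). In controls the log2 difference was -0.49 ± 0.20 (edgeR adjusted p = 0.0664). The VWF effect was smaller at 16 h than at 3.5 h by a log2 difference of -1.02 ± 0.27 (edgeR adjusted p = 0.0058), and the LPS effect was larger by 1.60 ± 0.31 (edgeR adjusted p = 0.000367). The first of these lies close to the fold threshold and was between -1.17 and -0.92 when single cultures were left out, with an adjusted p under the threshold in each fit.

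Compared directly, Fcgr2b was higher with VWF than with LPS at 3.5 h by 0.67 ± 0.22 on the log2 scale, short of the fold threshold (edgeR adjusted p = 0.0267). Its adjusted p moved past the threshold with single cultures left out while the difference stayed between 0.50 and 0.62, to 0.0578 without LPS replicate 1, 0.0563 without LPS replicate 2, 0.0554 without VWF replicate 4 and 0.0543 without VWF replicate 5. It was 0.086 with no filter, whereas DESeq2 gave 0.00764 and library size scaling a difference of 0.97 (edgeR adjusted p = 0.002). At 16 h Fcgr2b was lower with VWF than with LPS by a log2 difference of -1.94 ± 0.14 (edgeR adjusted p = 2.26e-06). The change of the VWF to LPS difference between the times, a test added after these values had been seen, was -2.63 ± 0.28 (edgeR adjusted p = 7.4e-07). In that test 25% of 8217 genes were called, and of the 5 members Fcgr2b and Fcgr4 were.

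**Figure D1:**
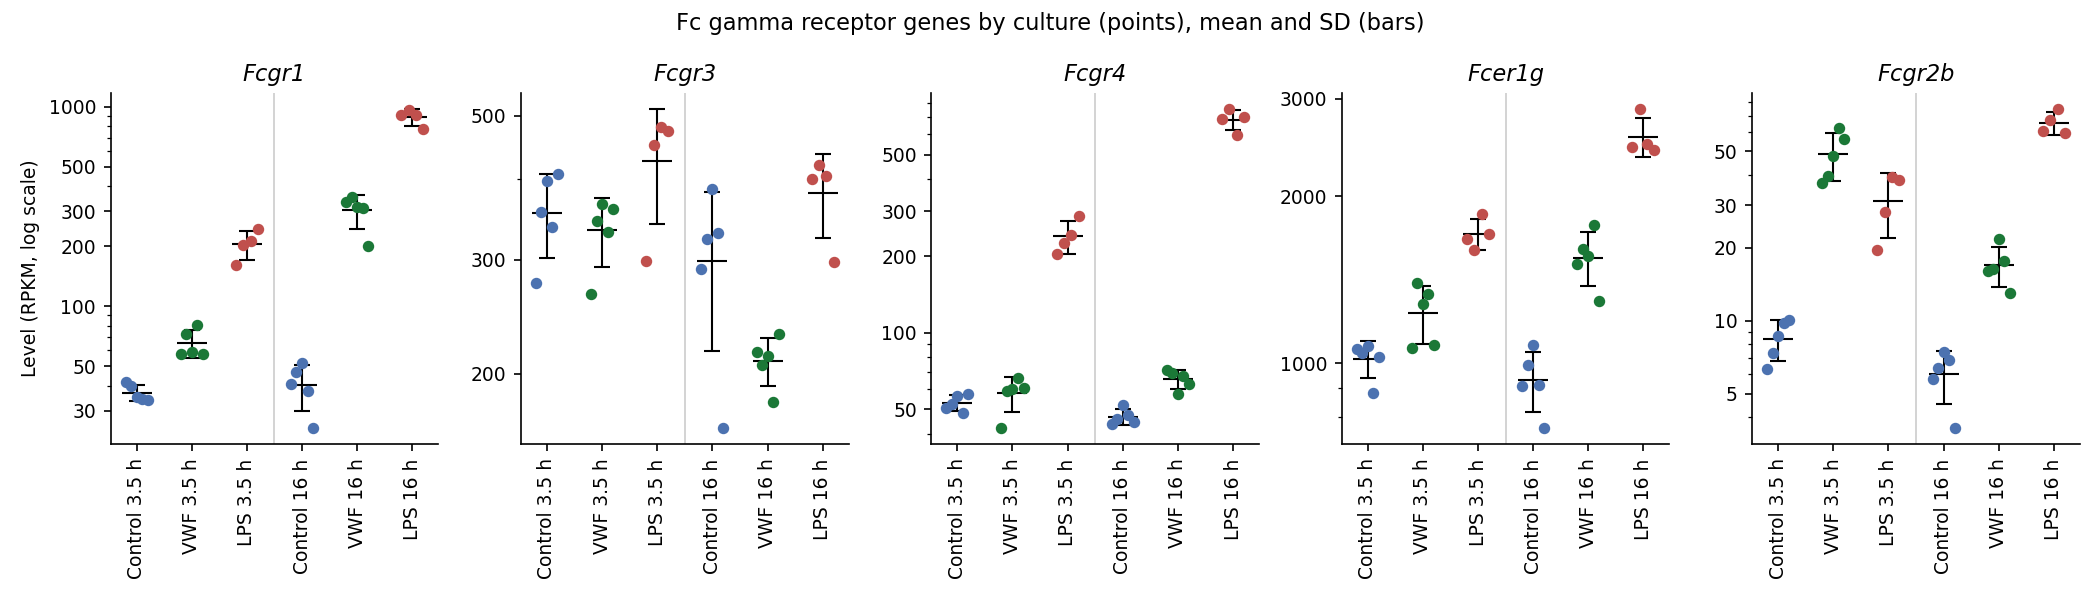
Level of each gene in each of the 28 cultures, in RPKM on a log axis whose range differs between panels. Points are cultures and bars are the mean and SD of 4 or 5 cultures, with control in blue, VWF in green and LPS in red. Fcgr2b is highest at 3.5 h among VWF groups and at 16 h among LPS groups, whereas Fcgr1 is higher at 16 h with both agonists.

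Fcgr1, the only high-affinity IgG receptor of the set, took the opposite order in time with VWF, and with LPS it was, like Fcgr2b, changed more at 16 h. In controls at 3.5 h it measured 41.6, 39.7, 35.0, 34.1 and 33.9 RPKM. With VWF at 3.5 h it measured 57.3, 72.6, 59.1, 80.3 and 57.4 RPKM, and with LPS 161, 202, 212 and 243 RPKM. The 3 groups did not overlap, with control lowest and LPS highest.

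At 16 h the control cultures measured 40.6, 47.0, 51.7, 37.6 and 24.6 RPKM for Fcgr1. The VWF cultures measured 334, 351, 316, 309 and 201 RPKM. The LPS cultures measured 907, 965, 905 and 770 RPKM. The groups again stood apart in the same order, and control replicate 5 and VWF replicate 5 were the lowest of their groups.

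Fcgr1 was higher with VWF at 3.5 h by 0.84 ± 0.11 on the log2 scale, which passed the adjusted p but not the fold threshold (edgeR adjusted p = 8.52e-05). At 16 h it rose 7.4-fold with VWF (log2 fold change 2.89 ± 0.23, edgeR adjusted p = 7.33e-06), the largest change of the 5 members with VWF at that time. The VWF effect was larger at 16 h by 2.09 ± 0.24 (edgeR adjusted p = 1.39e-06). LPS raised Fcgr1 by 2.48 ± 0.13 at 3.5 h and by 4.48 ± 0.22 at 16 h, and this effect too was larger at the later time, by 2.02 ± 0.24 (edgeR adjusted p = 2.44e-08, 2.38e-07 and 2.16e-06).

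Compared with LPS, VWF left Fcgr1 lower at both times, by log2 differences of -1.62 ± 0.14 at 3.5 h and -1.54 ± 0.16 at 16 h (edgeR adjusted p = 6.69e-06 and 2.11e-05). The change of that difference between the times was 0.06, with a 95% interval from -0.40 to 0.51 (edgeR adjusted p = 0.848).

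Fcgr4, an activating receptor for IgG2a and IgG2b, separated the agonists most widely. At 3.5 h it measured 50.7, 52.4, 56.3, 48.6 and 57.4 RPKM in controls and 42.4, 59.2, 60.3, 66.5 and 60.5 RPKM with VWF. With LPS it measured 203, 226, 241 and 287 RPKM. VWF cultures overlapped the controls, and the LPS cultures stood above both.

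At 16 h Fcgr4 measured 44.0, 46.0, 52.1, 47.5 and 44.5 RPKM in controls and 71.3, 69.8, 57.4, 67.9 and 62.8 RPKM with VWF. With LPS it measured 691, 752, 598 and 705 RPKM. The VWF cultures now all lay above the controls, by less than the gap that separated both from LPS.

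With VWF the log2 fold change of Fcgr4 was 0.13 at 3.5 h, with a 95% interval from -0.11 to 0.37 (edgeR adjusted p = 0.381), and it was -0.09 with scaling to library size alone and 0.22 without VWF replicate 1 (edgeR adjusted p = 0.0352). At 16 h it was 0.48 ± 0.08, past the adjusted p and short of the fold threshold (edgeR adjusted p = 0.0014). LPS raised Fcgr4 by 2.18 ± 0.11 at 3.5 h and by 3.90 ± 0.11 at 16 h (edgeR adjusted p = 1.49e-08 and 1.47e-08). The direct difference between VWF and LPS was -2.02 ± 0.13 at 3.5 h and -3.37 ± 0.11 at 16 h (edgeR adjusted p = 1.2e-06 and 1.95e-08), and it widened between the times by a further -1.37 ± 0.17 (edgeR adjusted p = 3.3e-06).

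Fcgr3, the low-affinity activating receptor for immune complexes, was the most abundant of the receptors in controls and was called in none of the 12 comparisons by edgeR or DESeq2, with 5 at an unadjusted edgeR p under 0.05. It measured 276, 355, 396, 337 and 407 RPKM in controls at 3.5 h, 265, 344, 365, 331 and 359 RPKM with VWF, and 299, 451, 480 and 474 RPKM with LPS. At 16 h it measured 290, 323, 386, 330 and 165 RPKM in controls, 216, 206, 213, 181 and 230 RPKM with VWF, and 400, 420, 404 and 297 RPKM with LPS. Agonist and control cultures overlapped at both times, at 16 h for VWF through control replicate 5 alone, since the other 4 controls lay above every VWF culture. Every LPS culture at 16 h lay above every VWF culture.

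The log2 fold change of Fcgr3 with VWF was -0.08 ± 0.12 at 3.5 h and -0.53 ± 0.20 at 16 h (edgeR adjusted p = 0.662 and 0.0762), and the second had an adjusted p of 0.0356 in DESeq2 and 0.0185 with all groups in one edgeR fit. It turned on 1 control culture. Without control replicate 5 it was -0.69 (edgeR adjusted p = 0.000254), past the adjusted p and still short of the fold threshold, and the change of the VWF effect between the times went from -0.41 to -0.59 (edgeR adjusted p = 0.195 and 0.00508). With library size scaling the value at 3.5 h was -0.30 (edgeR adjusted p = 0.0372). With LPS it was 0.28 ± 0.16 and 0.37 ± 0.23 (edgeR adjusted p = 0.142 and 0.2), and with scaling to library size alone these turned to -0.27 and -0.21, while without LPS replicate 1 the value at 3.5 h was 0.41 (edgeR adjusted p = 0.0151). Within VWF cultures Fcgr3 was lower at 16 h than at 3.5 h by a log2 difference of -0.66 ± 0.10 (edgeR adjusted p = 0.000154), and it was lower with VWF than with LPS at 16 h by -0.85 ± 0.12 (edgeR adjusted p = 0.00021). Both passed the adjusted p and not the fold threshold.

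Fcer1g, the signalling chain, was the most abundant member in every group. It measured 1061, 1043, 1073, 883 and 1025 RPKM in controls at 3.5 h, 1066, 1394, 1279, 1330 and 1079 RPKM with VWF, and 1673, 1601, 1857 and 1710 RPKM with LPS. At 16 h it measured 908, 990, 1079, 913 and 764 RPKM in controls, 1508, 1606, 1562, 1774 and 1295 RPKM with VWF, and 2459, 2872, 2488 and 2426 RPKM with LPS. The 3 groups stood apart at 16 h, whereas at 3.5 h VWF and control overlapped.

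Fcer1g rose with LPS at 16 h (log2 fold change 1.48 ± 0.12, edgeR adjusted p = 5.98e-06), and with scaling to library size alone the value was 0.91, short of the fold threshold. The other changes passed the adjusted p alone. They were 0.76 ± 0.09 with LPS at 3.5 h, 0.72 ± 0.12 with VWF at 16 h and 0.28 ± 0.10 with VWF at 3.5 h (edgeR adjusted p = 3.25e-05, 0.00111 and 0.0346). The last of these lost its adjusted p without any 1 of 6 of the 10 cultures, with values up to 0.08 without VWF replicate 2. With library size scaling it was 0.07 (edgeR adjusted p = 0.525), and the value with LPS at 3.5 h was 0.22 (edgeR adjusted p = 0.0249).

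Counted over the 5 genes, VWF against control called 1 at 3.5 h (Fcgr2b), where 14.7% of all genes tested were called, and 2 at 16 h (Fcgr1 and Fcgr2b), against 8.71% of all genes. LPS against control called 3 at 3.5 h (Fcgr1, Fcgr2b and Fcgr4), against 24.5% of all genes, and 4 at 16 h, these and Fcer1g, against 27.6%. Between VWF and LPS, 2 were called at 3.5 h (Fcgr1 and Fcgr4) and 3 at 16 h (these and Fcgr2b), against 11.4% and 25.5%. None of the 5 was called between the control groups of the 2 times by edgeR or DESeq2, where 9.08% of genes were called by edgeR, and 2 had an unadjusted p under 0.05. From 3.5 h to 16 h, 2 were called with VWF and 3 with LPS, against 21.4% and 28.1%. The VWF effect differed between times for 2 and the LPS effect for 3, against 13.5% and 26.3%.

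By the adjusted p alone, with no fold threshold, a larger share of all genes passed and the members' counts read accordingly. With VWF 3 of the 5 passed at 3.5 h and 4 at 16 h, against 43.6% and 27.7% of all genes. With LPS 4 passed at each time, against 65.7% and 53.7%. Between VWF and LPS 4 passed at 3.5 h and all 5 at 16 h, against 50.2% and 60.5%. Between the times none passed in controls by edgeR, 4 with VWF and 4 with LPS, against 41.1%, 67.9% and 60.9%. DESeq2 passed 2 in controls, Fcgr2b and Fcgr4 (adjusted p = 0.0393 and 0.0397). For the VWF effect, the LPS effect and their difference between the times, 4, 4 and 3 passed, against 32.6%, 48.8% and 52.7%. With library size scaling the median of all genes moved by -0.55 and -0.59 on the log2 scale with LPS at 3.5 h and 16 h and by -0.22 and -0.09 with VWF.

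**Figure D2:**
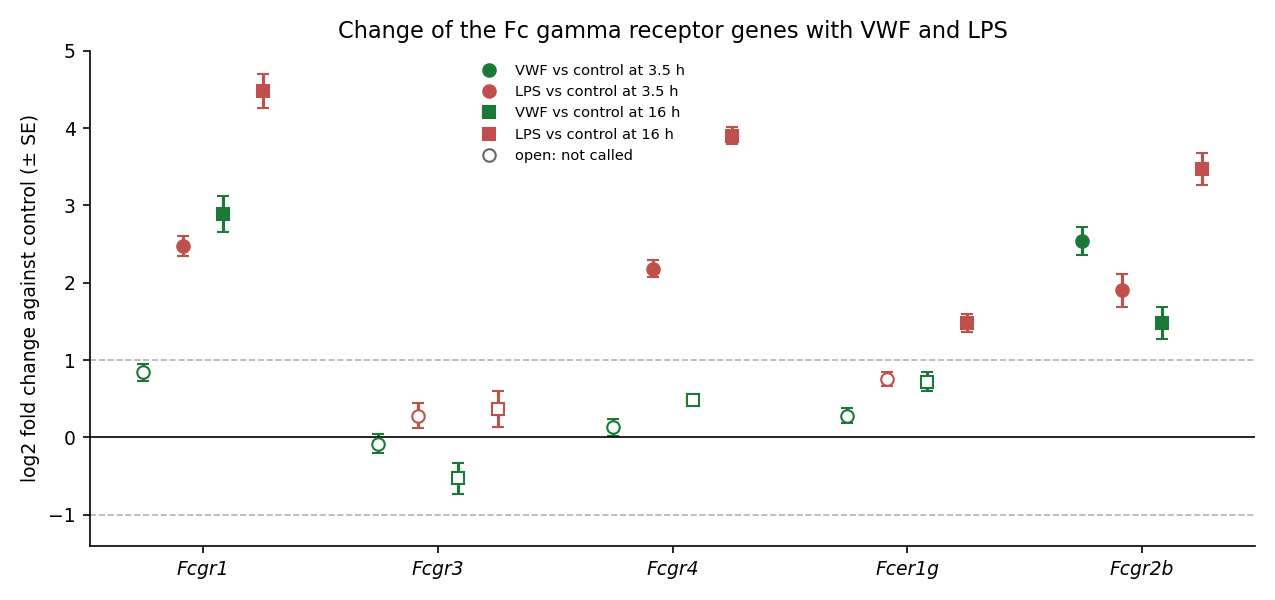
Log2 fold change against the control of the same time for each gene, from the edgeR fits, with error bars of 1 SE. Circles are 3.5 h and squares 16 h, green is VWF and red is LPS, filled symbols are called and dashed lines mark the fold threshold. At 3.5 h Fcgr2b is the only filled green symbol, and Fcgr3 has no filled symbol.

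The balance of activating to inhibitory transcripts was described as the ratio of summed Fcgr1, Fcgr3 and Fcgr4 to Fcgr2b within each culture. It needs no scaling between cultures but depends on the gene lengths, and since it is a score over the chosen genes it was given no test. In controls at 3.5 h the ratio was 58.6, 60.7, 56.4, 42.9 and 49.2. With VWF it was 9.82, 12.0, 10.1, 7.6 and 8.49, and with LPS it was 33.9, 31.2, 23.7 and 26.4. The 3 groups did not overlap, and the VWF cultures had the lowest ratios of all 28 cultures.

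At 16 h the ratio was 65.3, 65.3, 66.0, 60.2 and 64.9 in controls. It was 38.6, 38.4, 26.9, 31.7 and 38.0 with VWF and 32.9, 31.7, 25.6 and 29.7 with LPS. Both agonist groups lay below the controls and overlapped each other. The geometric mean ratio with VWF went from 9.5 at 3.5 h to 34.4 at 16 h without overlap, while with LPS it was 28.5 and 29.8. With the length of the longest transcript in place of all exons, the lengths of Fcgr2b and Fcgr3 went from 5790 to 3544 and from 1736 to 1347 bases. The RPKM of Fcgr2b was then 1.63 times as high, and the ratio was 40 and 48.1 in controls, 7.04 and 23.3 with VWF and 19.9 and 19.3 with LPS at the 2 times, with the same groups overlapping.

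The same sum hid different genes. Relative to Fcgr2b, the level of Fcgr1 was 1.35 times with VWF at 3.5 h and 17.7 times at 16 h, against 4.42 and 6.7 times in controls. That of Fcgr4 was 1.2 times with VWF at 3.5 h and 3.93 times at 16 h, against 6.37 and 8.02 times in controls. These ratios too depend on the gene lengths. By longest transcript, mean Fcgr2b with VWF at 3.5 h was 79.6 RPKM, above Fcgr1 at 65.3 and Fcgr4 at 57.8 RPKM, which reversed their order. With VWF at 16 h it was 27.7 RPKM by longest transcript in place of 17 RPKM, against 302 RPKM for Fcgr1. For LPS the Fcgr4 to Fcgr2b ratio was 7.87 and 10.5, with ranges that overlapped the controls at both times. Fcgr3 over Fcgr2b was below the controls in every culture of both agonists at both times, and was lowest with LPS at 16 h, at 5.76 against 49.3 in controls.

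**Figure D3:**
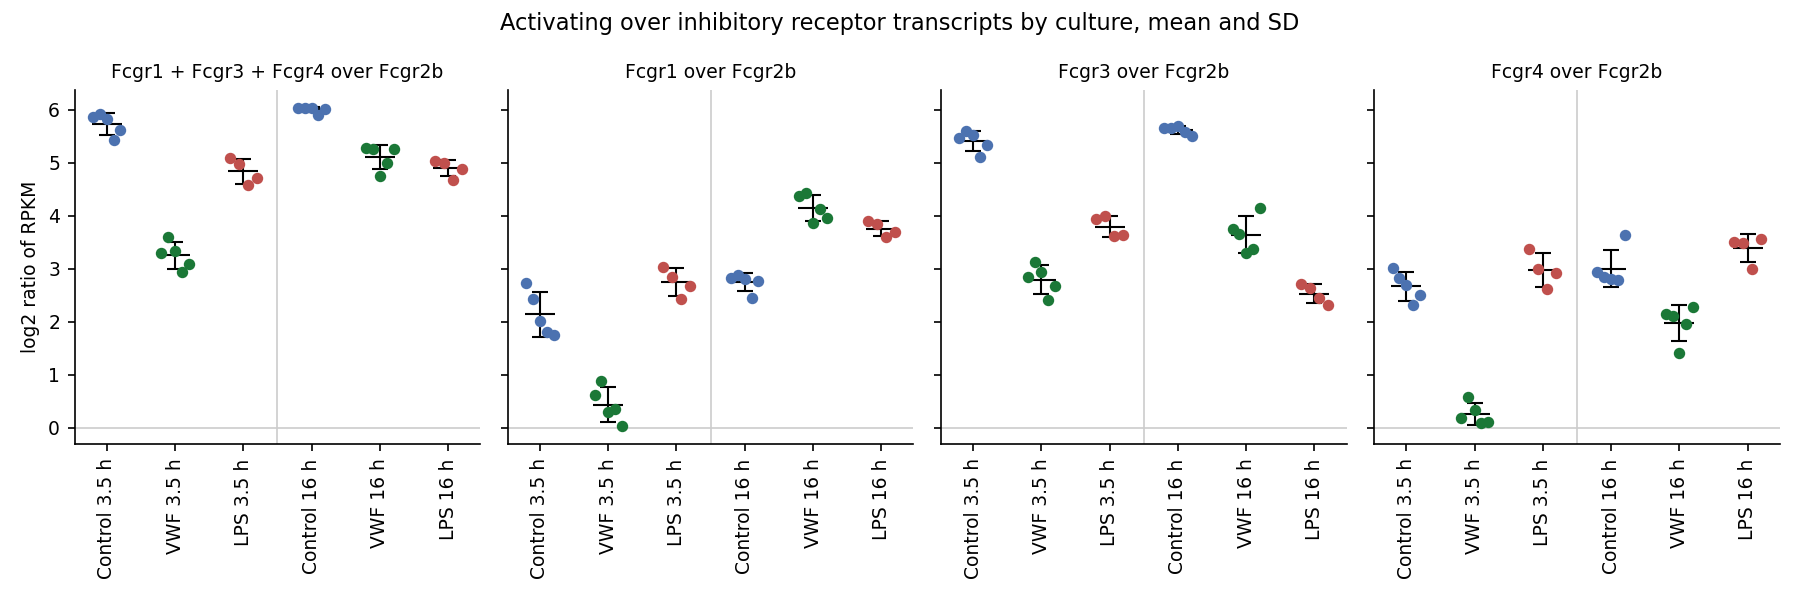
Log2 ratio of activating receptor levels to Fcgr2b in each culture, for the sum of the 3 activating receptors and for each of them. Points are cultures and bars are the mean and SD, with control in blue, VWF in green and LPS in red. VWF cultures at 3.5 h are lowest in the first panel, with a mean of 3.25 against 5.73 in controls.

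As a share of the 4 receptor transcripts per length, Fcgr3 made up 78% ± 2.56 (SD, n = 5) in controls at 3.5 h. It made up 66% ± 2.83 (SD, n = 5) with VWF and 47.1% ± 2.91 (SD, n = 4) with LPS at that time. At 16 h its share was 75.6% ± 3.56 (SD, n = 5) in controls, 35.6% ± 5.67 (SD, n = 5) with VWF and 18.8% ± 1.79 (SD, n = 4) with LPS. The largest share passed to Fcgr1 with both agonists at 16 h, at 50.4% ± 6.12 (SD, n = 5) with VWF and 43.9% ± 1.5 (SD, n = 4) with LPS. Fcgr4 held 34.1% ± 3.42 (SD, n = 4) with LPS at 16 h and 11.1% ± 1.11 (SD, n = 5) with VWF, whose range of 9.45% to 12.4% overlapped the 10.5% to 18.7% of the controls. Fcgr2b reached its largest share, 9.61% ± 1.52 (SD, n = 5), with VWF at 3.5 h. By longest transcript that share was 12.5%, and with VWF at 16 h the shares of Fcgr1 and Fcgr3 were 45.1% and 40.8%.

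The summed level of the 4 receptors was 453 ± 53.7 RPKM in controls and 505 ± 58.1 RPKM with VWF at 3.5 h (SD, n = 5 each), so the composition differed at a sum whose ranges overlapped. With LPS at 16 h the sum was 2020 ± 155 RPKM (SD, n = 4), against 392 ± 96.2 RPKM (SD, n = 5) in controls. Fcer1g stood at 2.49 ± 0.443 times the summed activating receptors in controls and 2.69 ± 0.287 times with VWF at 16 h (SD, n = 5 each), and at 1.31 ± 0.06 times with LPS (SD, n = 4), below every other culture.

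**Figure D4:**
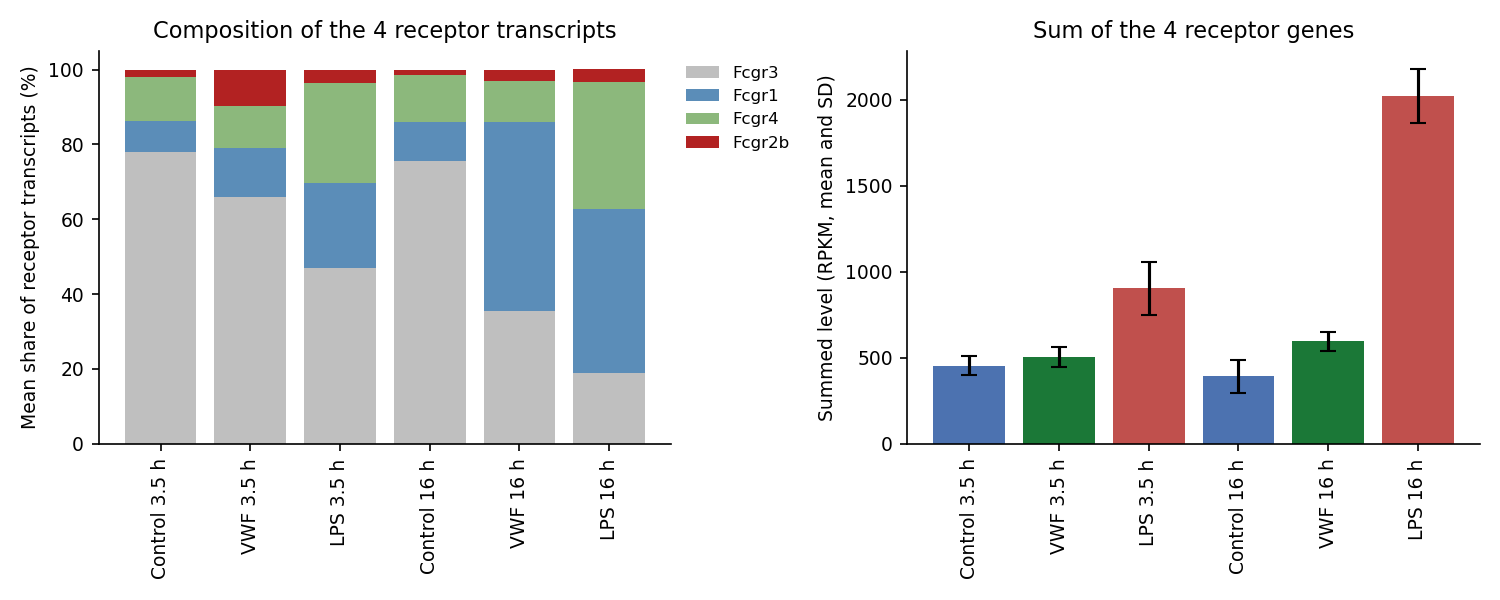
Left, mean share of Fcgr3, Fcgr1, Fcgr4 and Fcgr2b in the summed RPKM of the 4 receptor genes in each group. Right, that sum as mean and SD of 4 or 5 cultures. At 16 h the share of Fcgr3 is 75.6% in controls and 18.8% with LPS, at mean Fcgr3 levels of 299 and 380 RPKM.

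The chromosome 1 neighbourhood did not move as one. The stretch from Fcgr2b to Fcer1g holds 17 annotated genes in the table, 11 of them protein coding, and few were expressed. Between the receptors and Fcer1g, Sdhc, a subunit of mitochondrial complex II, had log2 fold changes of -0.11 with VWF and 0.10 with LPS at 3.5 h (edgeR adjusted p = 0.445 and 0.435). Pcp4l1 fell at 16 h, by 1.65 ± 0.20 with VWF and by 2.89 ± 0.15 with LPS on the log2 scale (edgeR adjusted p = 0.000119 and 2.42e-07). Fcer1g, the next tested gene along the stretch, was higher. Fcgr4 and Fcgr3, which lie next to each other, had log2 fold changes of 3.90 and 0.37 with LPS at 16 h.

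By group means over the 6 groups, each centred on its own average, the genes whose pattern was most like Fcgr1 were Oas3, Bst2 and H2-T24, with root mean square differences of 0.30, 0.33 and 0.42 on the log2 scale. Among those most like Fcgr2b were Dtx2 and Znfx1 at 0.37 and 0.39, and those most like Fcgr4 were Plac8, Sdcbp2 and Cysltr2 at 0.28, 0.37 and 0.37. For the members that varied least, distances were shorter. Clip1, Ppp1r10 and Atp6v1h stood nearest to Fcgr3 at 0.05, 0.09 and 0.10, and Srgap2, Tmbim6 and Casp8 to Fcer1g at 0.07, 0.09 and 0.10. These neighbours depended on the measure, and 5 of the 15 stayed among the 3 nearest when the difference was taken over the 28 cultures, 3 for Fcgr2b, 1 each for Fcgr1 (Oas3) and Fcer1g (Tmbim6) and none for Fcgr3 or Fcgr4. Among the members themselves Fcgr3 and Fcer1g were the closest pair at 0.52 and Fcgr1 and Fcgr3 the most distant at 1.69.

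Around the receptors, genes of 5 lists were read from the same fits. Of the genes that signal from the ITAM, VWF at 3.5 h raised 6 of 23 tested and lowered 1, where 14.7% of all genes were called, with a median log2 fold change of -0.07 against -0.01 over all genes. The share of all genes called was 8.71% with VWF at 16 h, 24.5% with LPS at 3.5 h and 27.6% with LPS at 16 h, and the counts of each list below stand beside these shares. The largest rise was that of Src at 3.48 (edgeR adjusted p = 6.16e-10), and Pik3r1, a regulatory subunit of PI3-kinase, fell by 1.01 (edgeR adjusted p = 3.54e-06). At 16 h VWF raised 2 of 23, with Fgr, a Src-family kinase, highest at 1.72, and lowered Vav3, a guanine nucleotide exchange factor, by a log2 change of -1.26. LPS raised 5 and lowered 2 of 23 at 3.5 h, from Src at 3.48 to Vav2 at -1.86, and raised 7 of 22 at 16 h, with Vav1 the smallest of them at 1.34.

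Of the inhibitors of Fc receptor signalling, VWF at 3.5 h raised none by edgeR or DESeq2 and lowered 2 of 11 tested, near the 14.7% of all genes. The median of the list was -0.37 on the log2 scale against -0.01 over all genes tested, and 7 of the 11 had an unadjusted p under 0.05. The 2 called lower were Dok2, an adaptor that dampens kinase signalling, at -1.38, and Inpp5d, the phosphatase that the ITIM of Fcgr2b recruits, at -1.02 (edgeR adjusted p = 1.37e-07 and 1.93e-05). At the same time the receptor Fcgr2b itself was higher. LPS at 3.5 h lowered 3 of 11 and raised Dok1 by 1.12, with Inpp5d lowest at -1.93. At 16 h VWF called none of 10 (edgeR, and likewise DESeq2), with 4 at an unadjusted p under 0.05, and LPS raised Dok1 by 1.11 and lowered Dok2 by a log2 change of -1.19.

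Of the actin machinery of phagocytosis, VWF raised 5 of 27 at 3.5 h, near the 14.7% of all genes, and lowered none by edgeR or DESeq2, where 13 had an unadjusted p under 0.05, with Marcksl1 highest at 2.45 and Myo10, a motor protein of phagocytic cups, the smallest at 1.15. Only Vasp, which promotes actin filament growth, was called with VWF at 16 h, at 1.49 among 26 tested. LPS raised 4 and lowered 2 of 27 at 3.5 h, from Marcksl1 at 3.61 to Limk1 at -1.62, and raised 3 and lowered 2 of 26 at 16 h, from Marcksl1 at 2.43 to Gsn, an actin-severing protein, at -1.49. Both LPS counts lay below the 24.5% and 27.6% of all genes.

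Of the lectin and collagen receptors and the IgE receptor chain Fcer1a, which also signal through Fcer1g, 3 of 6 were expressed enough to be tested. Clec4e, which senses microbial and cell-death glycolipids, rose by 4.18 with VWF at 3.5 h and by 1.71 at 16 h, and by 3.31 and 5.16 with LPS. Clec4d rose by 1.04 with LPS at 3.5 h, and Clec4n, which binds fungal mannans, was lower by 3.23 with VWF than in controls at 16 h. In controls Clec4n was itself higher at 16 h than at 3.5 h, by 2.28 ± 0.28 on the log2 scale (edgeR adjusted p = 0.000175). Of 13 other Fc receptors, a list that also holds Fcer1a, 3 or 4 were tested. Trim21, a cytosolic antibody receptor, rose by 3.22 with VWF and by 4.61 with LPS at 3.5 h. With LPS at 16 h Trim21 rose by 3.01 and Fcrls fell by 1.65. Against control, Fcrlb was tested with LPS at 16 h alone, at 3.84 ± 0.71. It passed the filter there only through the LPS cultures, where it was high. A rise was therefore fixed in advance, and this value is no test of one. None of the 3 tested with VWF at 16 h was called by edgeR or DESeq2. All 3 passed the edgeR adjusted p alone, 1 of them higher and 2 lower.

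**Figure D5:**
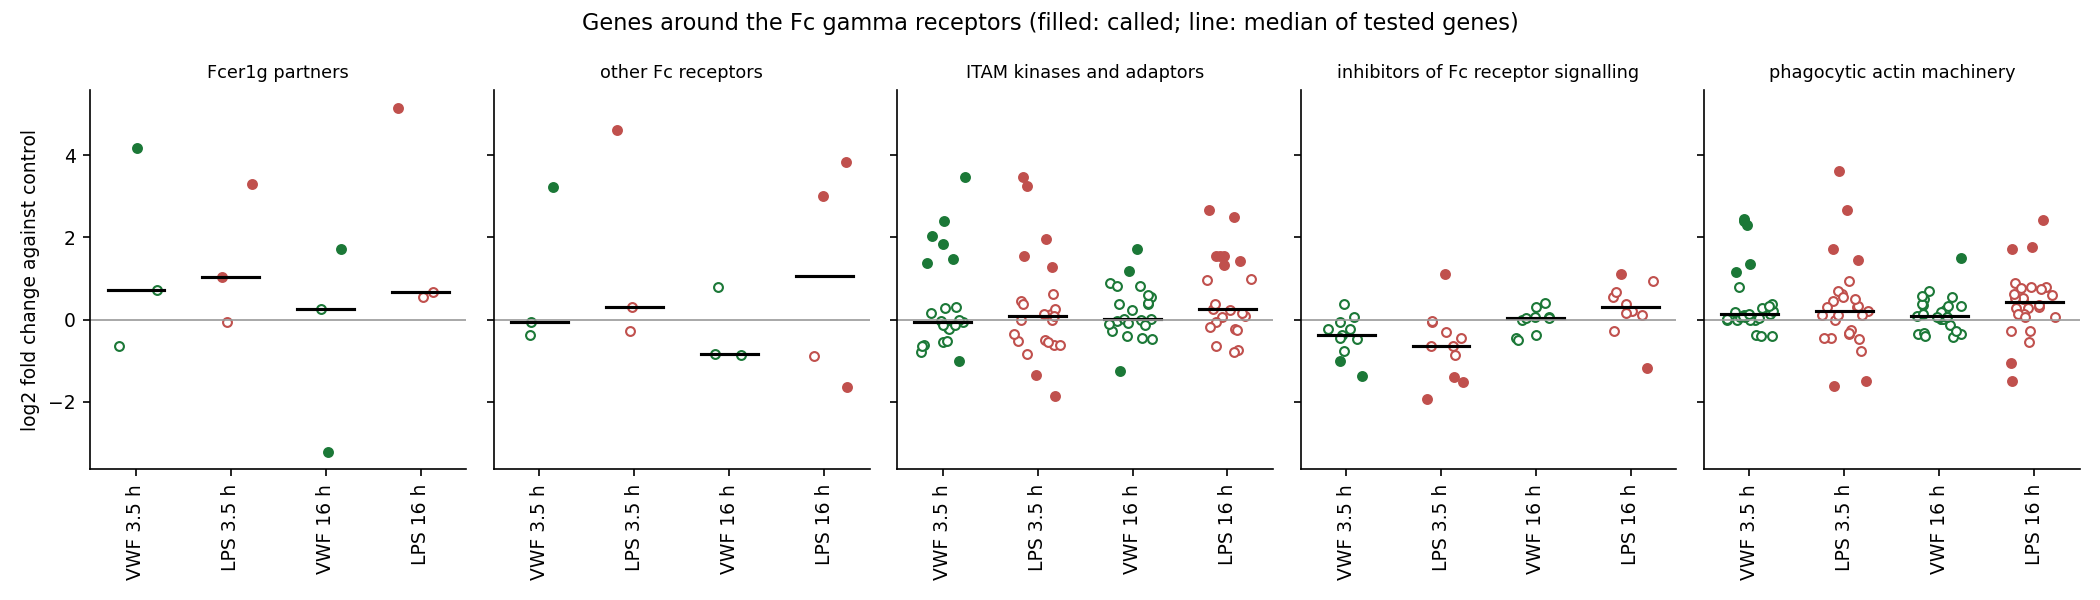
Log2 fold change against control of each tested gene in 5 lists of genes around the Fc gamma receptors, for VWF (green) and LPS (red) at each time. Each point is 1 gene, filled points are called and lines are the median of the tested genes. VWF at 3.5 h has filled points on both sides of 0 for ITAM kinases and adaptors, above 0 for actin genes and below 0 for inhibitors. In that comparison 14.7% of all genes were called.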

How the data were processed

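For 28 cultures of mouse BMDMs the authors aligned paired-end reads with STAR to the GRCm38 genome, and the values they deposited are integer counts per gene, neither normalized nor filtered. Strandedness, gene annotation and the treatment of multi-mapping reads were not stated in the paper or labels. Groups, times and replicate numbers were taken from the labels. Gene names and exon lengths came from a GENCODE annotation of GRCm38, matched by gene identifier.

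Genes that reached 10 TPM in at least 1 culture of a comparison were tested with edgeR's robust quasi-likelihood test on the counts with TMM factors (R 4.3.3, edgeR 4.0.16), on the groups compared, with Benjamini-Hochberg adjustment over all genes tested. The filter and the thresholds (adjusted p 0.05, log2 fold change 1 in either direction) are those of the study's methods. Of 12 comparisons, 1 interaction was added after the values had been seen. SE is the log2 fold change divided by the root of the test's F value. RPKM used TMM factors over all cultures, between 0.729 and 1.19, and the union of exons. The factors were 0.729 to 0.845 in LPS, 0.967 to 1.12 in VWF and 0.944 to 1.19 in control cultures. A lower factor gives a higher RPKM at the same count and total. The lowest control factor was that of replicate 5 at 16 h, and the other controls began at 1.13. The script was tested on simulated data.

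The members, lists and rules were chosen with earlier results of these data known. Named genes are the members, the 3 genes nearest to each in pattern (prior count of 2), the called list genes with the largest and smallest change in each agonist against control comparison, and every called gene among other Fc receptors and Fcer1g partners. Sdhc, Pcp4l1 and the list genes called at 16 h beyond these were named after their values were seen. A gene that the rule names is not reported here.

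Alternatives were DESeq2 1.42.0, median-ratio factors, library size scaling, 2 other filters, all groups in one fit, the replicate block, longest transcript lengths and leaving out each culture. No culture duplicated another of its group, as the 52 within-group pairs of cultures gave a chi-square of 15.8 or more per degree of freedom. What replicate numbers stand for is not given. Same-numbered cultures deviated together, with every correlation above 0.1, for VWF and LPS at 16 h alone (4 pairs, 0.16 to 0.78), so the numbers may pair cultures there. The printed values are from fits without the block, which changed no call of a member. Over all genes the block moved the number called, for VWF against LPS at 3.5 h from 856 to 784. The list genes were not read with the block.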

Additional observations from a re-analysis of the deposited data

Results flagged for a closer look

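In 5 of 30 sets of one gene in one group, a single culture stood far from the others, a distance that chance gives in about 1 in 20 sets. Fcgr1 was 201 RPKM in VWF replicate 5 at 16 h, below the others of its group, which began at 309 RPKM. Fcgr3 was 299 RPKM in LPS replicate 1 at 3.5 h and 297 RPKM in LPS replicate 4 at 16 h, each the lowest of its group. Fcer1g was lowest in control replicate 4 at 3.5 h, at 883 RPKM, and highest in LPS replicate 2 at 16 h, at 2872 RPKM.

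In 11 of 15 tests of a change in effect between the times, the difference itself passed the adjusted p (edgeR quasi-likelihood test, Benjamini-Hochberg), where 32.6%, 48.8% and 52.7% of all genes passed for the VWF effect, the LPS effect and their difference. The VWF effect differed by 2.09 on the log2 scale for Fcgr1, -1.02 for Fcgr2b, 0.38 for Fcgr4 and 0.47 for Fcer1g. The LPS effect differed by 2.02 for Fcgr1, 1.60 for Fcgr2b, 1.73 for Fcgr4 and 0.74 for Fcer1g. The difference between VWF and LPS changed by -2.63 for Fcgr2b, -0.54 for Fcgr3 and -1.37 for Fcgr4. The value of 0.38 for Fcgr4 (edgeR adjusted p = 0.0379) lost its adjusted p in 12 of the 20 fits that left out 1 culture, with the highest, 0.0848, without VWF replicate 1 at 16 h. The value of -0.54 for Fcgr3 lost it with library size scaling, with either other filter and with all groups in one fit, at adjusted p between 0.0818 and 0.147.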

How the results depend on the processing

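Of the members' log2 fold changes, 415 of 420 values under other settings and 686 of 700 with 1 culture left out kept their direction and call. The adjusted p alone was lost in 15 and gained in 10 of the 420, and lost in 22 and gained in 6 of the 700. Library size scaling moved 15 of 30 group levels by over 1 SD, and turned Fcgr4 with VWF at 3.5 h to -0.09 and Fcgr3 with LPS to -0.27 at 3.5 h and -0.21 at 16 h, none of them called, and took Fcer1g with LPS at 16 h (0.91) and the change of the VWF effect on Fcgr2b (-0.91) below the fold threshold. That last value ran from -1.17 to -0.92 with 1 culture left out and fell short of the fold threshold in 8 of 20 fits. The rise of Fcgr2b with LPS between the times ran from 0.93 to 1.23 and fell short without LPS replicate 1 at 3.5 h. Values near 0 changed sign with 1 culture left out, the change of the LPS effect on Fcgr3 (-0.04 to 0.22) and that of the VWF to LPS difference on Fcgr1 (-0.04 to 0.17). With longest transcript lengths the log2 activating to inhibitory ratio of LPS against control at 16 h moved from -1.11 to -1.32, and its change with LPS between the times from 0.06 to -0.05, a value of -0.03 to 0.15 with 1 culture left out. The cause of these changes was not tested. Looser filters raised the number of genes called, with VWF at 3.5 h from 1204 to 2099 with filterByExpr and 2366 with no filter and with VWF at 16 h from 679 to 1362 and 1378, with LPS at 3.5 h from 2010 to 3917 and 4542, and with LPS at 16 h from 2210 to 4087 and 4224. In the other 8 comparisons both filters also moved it by over 1.5 times. With library size scaling the share of called genes that were higher went from 62% to 48.3% for VWF at 3.5 h, from 52.1% to 24.1% for LPS at 3.5 h and to 25.2%, from 55.2%, for LPS at 16 h. The replicate number as a block changed no call of a member, with Fcgr2b at 2.53 for VWF at 3.5 h and -1.87 for VWF against LPS at 16 h, and moved the adjusted p alone past the threshold for Fcer1g with VWF at 3.5 h (edgeR adjusted p = 0.0716), the change of the VWF effect on Fcgr4 (0.0544) and Fcgr3 with VWF against LPS at 3.5 h (0.0234). The adjusted p of Fcgr3 with VWF at 16 h turned on control replicate 5, without which it was 0.000254 against 0.0762.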
